A study of Mus musculus with 18 samples.

Results

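Zbtb24-deficient resting B cells were compared with control resting B cells, before any stimulation, in the 6 day 0 libraries of an RNA-Seq series of 18. The comparison covered every gene with a mean of at least 1 FPKM (read fragments scaled by transcript length and by the mapped reads of the library) over these 6 libraries, which were 9979 of the 16545 genes listed. *Map3k20*, at a mean of 1 FPKM, was just inside this limit and *Ifit3b*, at 0.998 FPKM, was just outside it. The 3 B-CKO libraries came from C57BL/6-background mice that carry *Zbtb24*loxp/loxp and 1 allele of a Cre expressed in B-lineage cells, which removes the loxp-flanked exon 2 of *Zbtb24* there. The 3 control libraries are labelled only as control, and the study's methods give the usual control as littermates with 2 wild-type *Zbtb24* alleles and the same Cre, so that both groups should carry 1 Cre allele, which was not tested. Each library held total B cells purified from the spleen of 1 mouse, and age was not given for these mice. The other 12 libraries are B cells of the same 2 genotypes after 1 or 2 days of culture with lipopolysaccharide (LPS), a bacterial ligand that activates B cells through a toll-like receptor.

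ZBTB24 is a zinc finger protein with a BTB domain that binds DNA and activates a small number of genes. Its loss in humans causes a form of ICF syndrome, an immunodeficiency with centromeric instability and facial anomalies, in which DNA methylation is lost at centromeric repeats. One of its targets, *Cdca7*, is itself an ICF syndrome gene, whose product works with the remodeler HELLS in keeping DNA methylated. Resting splenic B cells are mostly follicular cells with a smaller marginal zone population, and they divide little before activation.

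The question was which genes differ between the genotypes before activation. At rest 22 genes passed an adjusted p of 0.05 (limma on log2(FPKM + 1), blocked by replicate number, with Benjamini-Hochberg adjustment over all 9979 genes), which is 0.22% of the genes tested. Of these, 17 genes were lower in B-CKO cells (0.17%) and 5 were higher (0.0501%). The lower genes included *Zbtb24* itself and *Cdca7*, *Ostc*, *Taf6* and *Cdc40*, which other work names as ZBTB24 targets. The higher genes were *Serpina3f*, *Serpina3g*, *Crisp3*, *Gbp3* and *Pde2a*. Only *Zbtb24* and *Cdca7* of the 22 differed by at least 1 on the log2 scale, and the smallest called change was 0.413. With both libraries of replicate 1, 2 or 3 left out, 101, 10 and 12 genes passed. Without the replicate block 2 genes passed, and when every gene above 0 FPKM in any library was tested, with the block, limma called 0 genes, with 891 at an unadjusted p under 0.05.

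**Figure D1:**
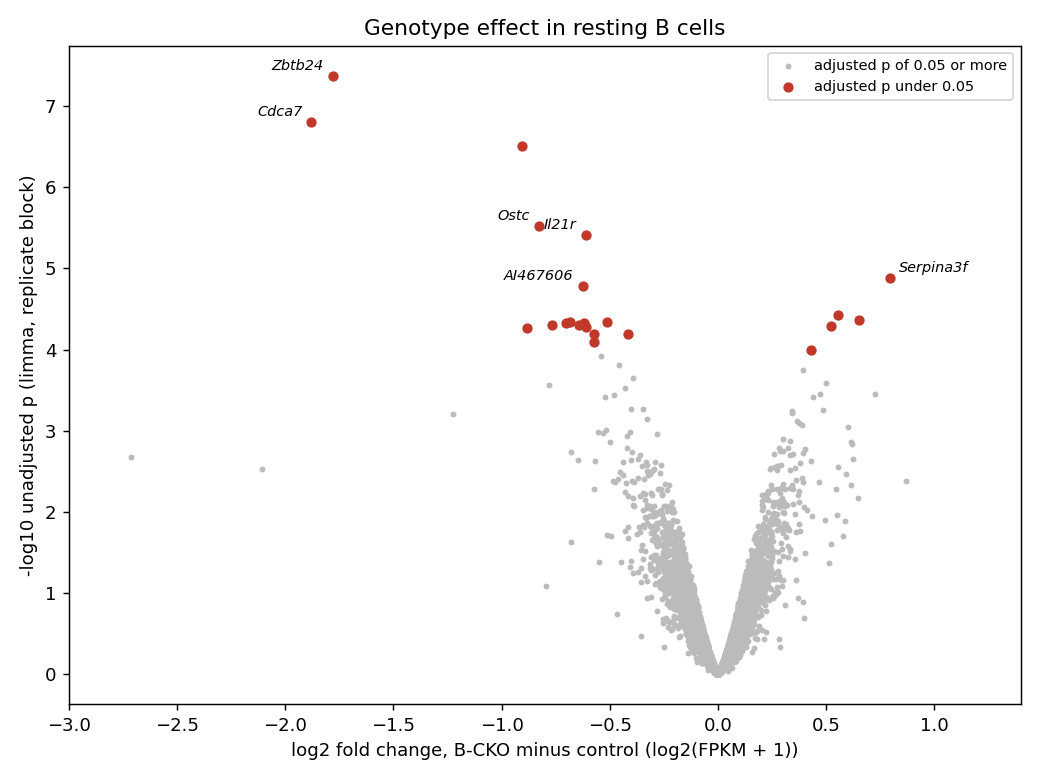
Genotype effect of each of the 9979 genes tested in resting B cells, with the log2 fold change (B-CKO minus control) on the x axis and the -log10 of the unadjusted limma p on the y axis. Red points are the 22 genes with an adjusted p under 0.05, of which 17 lie to the left (lower in B-CKO) and 5 to the right, and 6 of those with the smallest p are named.

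The promoters shown here belong to the 4 called genes whose 300-base RefSeq promoter window (GRCm38.p6, 250 bases before to 50 after a transcript start) holds the letters CAGGACCT on either strand, the core of the site known for ZBTB24. The window of *Cdca7* is given whole and the others from 50 bases before the first match to 50 bases after the last where the window allows, each 5′ to 3′ on the strand of the gene, and capitals mark the matched letters or their reverse complement. Counted from the transcript start of the window, the match lies 89 bases before the start in *Cdca7* (chr2:72475969-72476268, plus strand), 180 and 14 bases before it in *Taf6* (chr5:138187183-138187456, minus strand), 161 bases before it and from base 3 after it in *Cdc40* (chr10:40883094-40883354, minus strand), and 60 bases before it in *Rnf187* (chr11:58938909-58939016, minus strand). In *Taf6* and *Cdca7* that start lies inside the interval listed for the whole gene, and both matches of *Taf6*, in 1 of its 2 windows, also lie inside it.
Cdca7: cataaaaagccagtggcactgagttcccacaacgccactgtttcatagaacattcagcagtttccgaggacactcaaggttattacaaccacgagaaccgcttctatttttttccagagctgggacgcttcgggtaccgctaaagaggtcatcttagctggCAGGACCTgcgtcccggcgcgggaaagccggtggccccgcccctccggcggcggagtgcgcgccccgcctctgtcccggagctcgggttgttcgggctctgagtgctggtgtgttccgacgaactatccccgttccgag
Taf6: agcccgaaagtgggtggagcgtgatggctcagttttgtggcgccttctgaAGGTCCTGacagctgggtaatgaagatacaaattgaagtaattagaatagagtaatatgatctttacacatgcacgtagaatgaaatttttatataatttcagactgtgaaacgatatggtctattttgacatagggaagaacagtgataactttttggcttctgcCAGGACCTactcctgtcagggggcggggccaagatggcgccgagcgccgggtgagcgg
Cdc40: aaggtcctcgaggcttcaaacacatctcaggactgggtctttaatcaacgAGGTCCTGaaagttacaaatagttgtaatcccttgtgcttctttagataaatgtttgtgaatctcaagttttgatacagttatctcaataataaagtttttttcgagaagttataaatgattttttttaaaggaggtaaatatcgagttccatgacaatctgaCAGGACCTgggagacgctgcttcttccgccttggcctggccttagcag
Rnf187: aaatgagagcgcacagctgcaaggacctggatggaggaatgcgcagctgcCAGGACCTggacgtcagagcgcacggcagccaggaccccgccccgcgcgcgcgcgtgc

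Of all 32851 promoter windows from RefSeq, 653 hold these letters (1.99%), as do those of 155 of the 8139 genes tested here that have a window. Among the called genes, 4 of the 14 lower genes with a window hold them and 0 of the 5 higher genes. The windows of *Zbtb24*, *Il21r* and *Il4ra* were among those without a match, and *Ostc* and *Car2* were among those with no entry. Seen from the sequence, the 155 tested genes with a match had a median log2 fold change of -0.01, against 0.00 (a median of -0.00329) in the 7984 genes without one. 8 of the 155 were lower at an unadjusted p under 0.05 (5.16%, where 3.39% of all genes tested were) and 6 were higher (3.87%, where 2.81% of all were). Without the 4 called genes, 4 genes with a match were lower and 6 higher. These matches are a description of letters in a window, not of binding.

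*Zbtb24* was checked first, since it tests the labels. In GENCODE M21 its main transcript (chromosome 10, plus strand) has 7 exons, and exon 2 (chr10:41451089-41452068), which holds the start codon, makes up 980 of 2844 transcript bases (34.5%). *Zbtb24* was at 49.6, 49.6 and 37.1 FPKM in control replicates 1, 2 and 3 and at 14.3, 10.5 and 12.6 FPKM in the B-CKO replicates. The groups did not overlap, and the B-CKO mean was 0.275 of the control mean (12.5 ± 1.90 against 45.4 ± 7.24 FPKM, SD, n = 3 each). The log2 fold change was -1.78 (SE 0.11, adjusted p = 0.000423 by limma), and the two-sided exact permutation test gave p = 0.1, the smallest that 3 against 3 libraries can reach. Since the FPKM value covers the whole gene, what is left in B-CKO cells can include reads from exons outside the deleted one.

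*Cdca7* (chr2:72476187-72486892) was at 7, 6.91 and 4.67 FPKM in the control replicates and at 0.93, 0.82 and 1.05 FPKM in the B-CKO replicates. No B-CKO library came near the lowest control, and the B-CKO mean was 0.151 of the control mean (log2 fold change -1.88, SE 0.13, adjusted p = 0.000774 by limma). The log2(FPKM + 1) scale understates a change at such low levels. The other DNA methylation and ICF syndrome genes were not called. Of 18 such genes 16 were tested, 1 was called (*Cdca7*), and the list's median was 0.03. *Dnmt3b*, *Hells* and *Dnmt1*, which encode a de novo methyltransferase, the partner of CDCA7 and the maintenance methyltransferase, had log2 fold changes of 0.01, 0.03 and 0.06. *Uhrf1*, which brings DNMT1 to hemimethylated DNA, measured 5.71, 7.21 and 5.11 FPKM in the controls and 7.36, 7.57 and 6.14 FPKM in B-CKO libraries, a difference of 0.20 at an adjusted p of 0.772.

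*Ostc* (chr3:130695917-130709444) encodes a subunit of the oligosaccharyltransferase, the complex that attaches N-glycans to proteins in the endoplasmic reticulum. It measured 47.5, 43.8 and 35.9 FPKM in the controls and 25.7, 21.2 and 23.2 FPKM in B-CKO libraries. Each B-CKO library was below every control (log2 fold change -0.83, SE 0.08, adjusted p = 0.00743 by limma). The remaining 11 members of the complex were all tested and none was called, with 0 at an unadjusted p under 0.05 and a median of -0.02. *Dad1*, the most abundant of them, was at 143.8 ± 17.9 FPKM in the controls and 132.8 ± 16.2 FPKM in B-CKO cells (SD, n = 3).

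*Taf6* (chr5:138178617-138187451) encodes a subunit of TFIID, the factor that places RNA polymerase II at promoters. Its FPKM values were 26.1, 23.3 and 15.3 in control and 14.6, 12.4 and 11.3 in B-CKO libraries, with no overlap but with control replicate 3 close to the B-CKO range (log2 fold change -0.68, SE 0.09, adjusted p = 0.0296 by limma). The other TFIID genes followed no such pattern, since of 15 tested 0 were called, 0 had an unadjusted p under 0.05, and their median was -0.04. *Cdc40* (chr10:40831621-40883143), a factor of the second step of splicing, measured 21.7, 16.5 and 19.2 FPKM in the controls and 10.99, 12.1 and 10.9 FPKM in B-CKO libraries (log2 fold change -0.70, SE 0.10, adjusted p = 0.0296 by limma). All 9 other second-step factors were tested and 0 were called, with a median of -0.03. *Cdc40* is also a neighbour of *Zbtb24*: of the 10 genes tested that start within 1 Mb of *Zbtb24* it was the one called, and of the 3 within 0.25 Mb none was called or had an unadjusted p under 0.05.

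*Rnf187* (chr11:58932288-58938906), which encodes an E3 ubiquitin ligase that acts on AP-1 transcription, was named here after its values had been seen, because its promoter window holds the letters above. It measured 96.8, 95.5 and 91.5 FPKM in the controls and 61.8, 56.2 and 72.7 FPKM in B-CKO libraries. The control replicates lay close together and all 3 B-CKO libraries were below them (log2 fold change -0.57, SE 0.08, adjusted p = 0.0322 by limma).

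Cytokine receptor genes were among the lower genes, and the 4 genes of this paragraph lie in the same region of chromosome 7. They start at bases 125552271 (*Il4ra*), 125603252 (*Il21r*), 127090780 (*AI467606*) and 127991373 (*Pycard*). Whether their shared location has a part in their differences was not tested. *Il21r* (chr7:125603252-125634397), the interleukin 21 receptor gene, measured 131.8, 152.4 and 201.3 FPKM in the controls and 91.9, 93.7 and 130.6 FPKM in B-CKO libraries, without overlap (log2 fold change -0.61, SE 0.06, adjusted p = 0.00765 by limma). *Il4ra*, the receptor gene for interleukin 4, measured 93.9, 106.6 and 116.1 FPKM in the controls and 71.6, 76.2 and 89.2 FPKM in B-CKO libraries (log2 fold change -0.41, adjusted p = 0.0322 by limma). *AI467606* and *Pycard*, the gene of the inflammasome adaptor ASC, had log2 fold changes of -0.63 and -0.57, and none of the 4 overlapped between the groups. All 4 were called lower at day 1 and none of them at day 2, both fitted without the replicate block. *Pycard* had differences of -0.47 and -0.45 at days 1 and 2 and *Il4ra* of -0.39 and -0.32, with an adjusted p of 0.054 and 0.057 at day 2 and no overlap between the groups, while *Il21r* had -0.35 and -0.10.

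Of 6 further lower genes that were called, *Car2* alone was in a list, that of erythroid markers, whose summed level overlapped between the groups (20.2 to 43.5 FPKM in the control libraries, 15.2 to 74.5 FPKM in B-CKO). The other 4 tested members, all globin genes, had differences of the opposite sign, from 0.37 in *Hba-a2* to 0.58 in *Hbb-bs*, and the list's median was 0.40. *Pcp4*, which encodes a small calmodulin-binding protein, measured 8.02, 6.79 and 5.10 FPKM in the controls and 3.69, 2.42 and 3.28 FPKM in B-CKO libraries (log2 fold change -0.88, adjusted p = 0.0296 by limma). *Car2*, a carbonic anhydrase, measured 6.67, 5.03 and 5.69 FPKM in the controls and 4.17, 2.99 and 3.16 FPKM in B-CKO libraries, and *Rgl1*, an exchange factor for Ral GTPases, had a log2 fold change of -0.61. In these 3 genes all B-CKO libraries were below all controls. In *Tsc22d1*, *Zc3h12c* and *Cdk5rap1* the groups overlapped, and the call rests on the comparison within each replicate number. *Tsc22d1*, a transcriptional regulator, was at 15.7, 37.3 and 41.0 FPKM in control replicates 1, 2 and 3 and at 11.5, 26.6 and 25.8 FPKM in the B-CKO replicates of the same numbers, so that B-CKO replicates 2 and 3 were above control replicate 1. *Zc3h12c*, of the regnase family of RNA-degrading enzymes, and *Cdk5rap1*, which modifies mitochondrial tRNA, had log2 fold changes of -0.64 and -0.77.

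The higher genes began with *Serpina3f* and *Serpina3g*, 2 neighbouring serine protease inhibitor genes on chromosome 12. *Serpina3f* measured 3.18, 4.87 and 3.49 FPKM in the controls and 7.36, 8.70 and 6.13 FPKM in B-CKO libraries (log2 fold change 0.80, SE 0.09, adjusted p = 0.0215 by limma). *Serpina3g* measured 49.5, 42.7 and 39.5 FPKM in the controls and 66.0, 61.6 and 66.9 FPKM in B-CKO libraries (log2 fold change 0.56, adjusted p = 0.0296 by limma). In both genes every B-CKO library was above every control. The Serpina3 genes are close copies of each other, so the division of reads between them is uncertain. *Crisp3*, a cysteine-rich secretory protein gene, measured 6.31, 4.36 and 5.32 FPKM in the controls and 11.9, 6.51 and 8.94 FPKM in B-CKO libraries (log2 fold change 0.65, adjusted p = 0.0296 by limma). *Pde2a*, a cyclic nucleotide phosphodiesterase, was higher in each B-CKO library than in the control of the same number, with overlap between the groups (24.2, 44.2 and 37.9 FPKM against 32.6, 64.9 and 48.1 FPKM), and was the last gene inside the threshold (log2 fold change 0.43, adjusted p = 0.0464 by limma). *Zfp385a* (log2 fold change -0.54, adjusted p = 0.0526) was the first gene outside it.

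**Figure D2:**
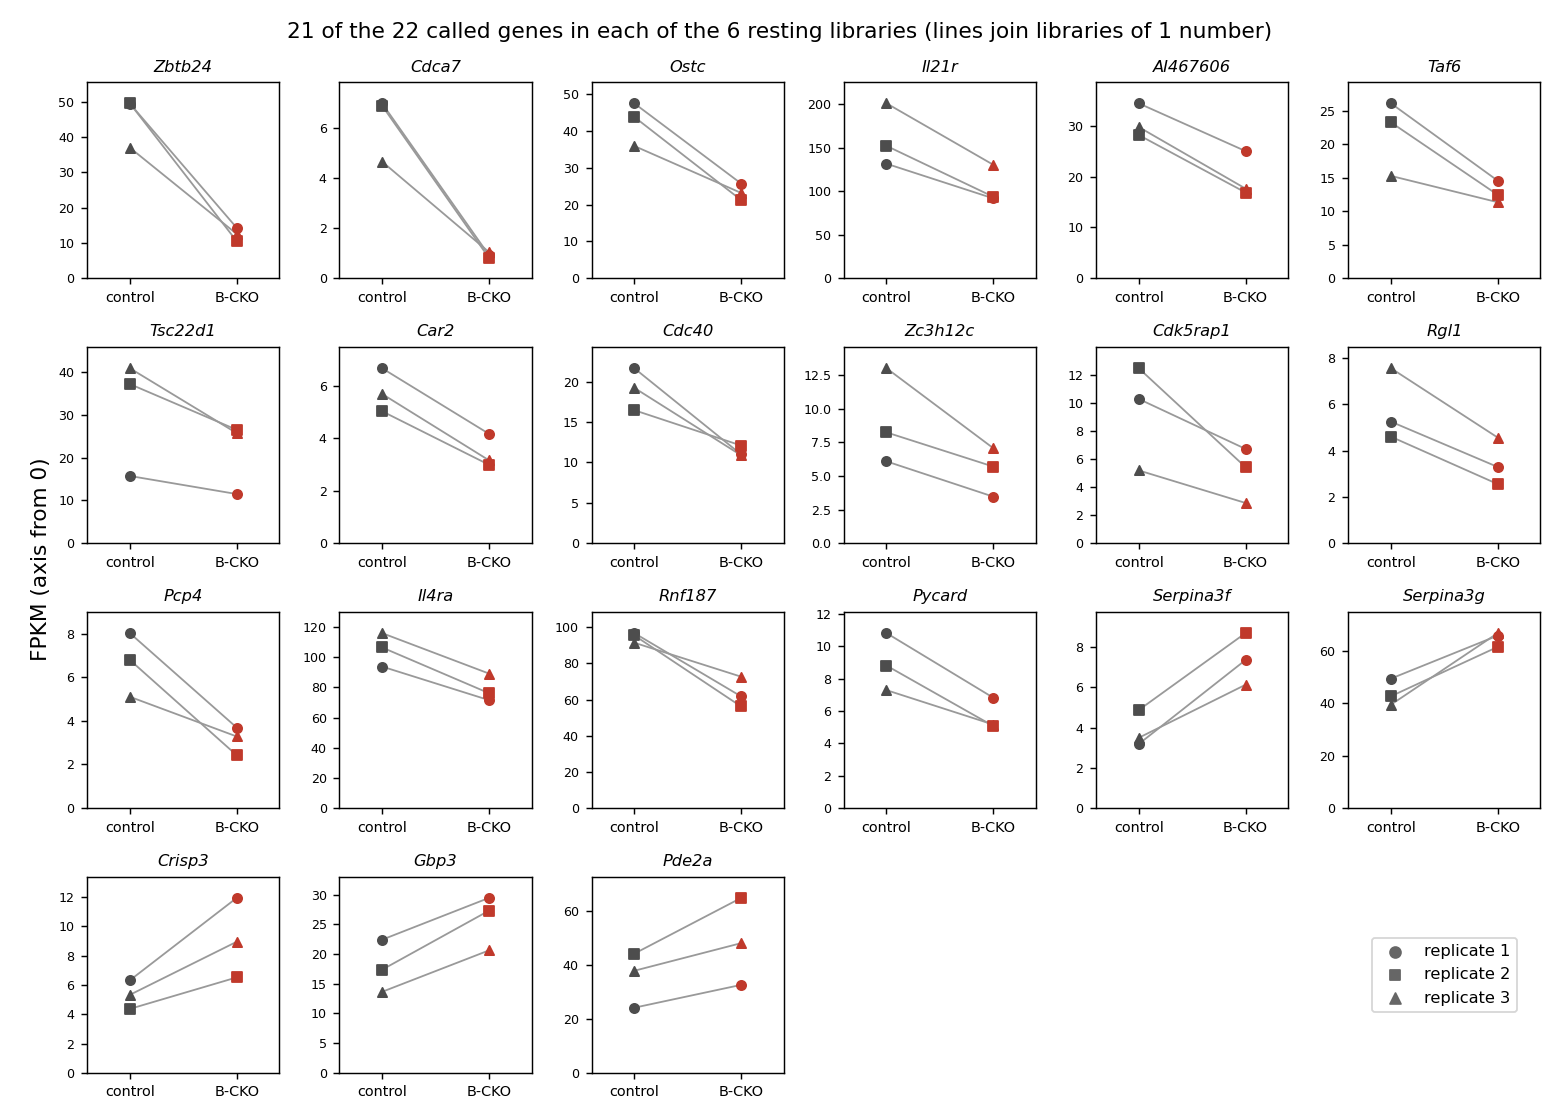
FPKM of 21 of the 22 called genes in each resting library, 1 panel a gene with the y axis starting at 0, control in grey and B-CKO in red. Lines join the control and B-CKO libraries of the same replicate number, and every line falls in the lower genes and rises in the 5 higher genes, while the groups overlap in 5 panels.

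Of the 22 called genes 14 had all B-CKO libraries below all controls (1.56% of all genes tested did) and 3 had them all above (1.65% of all did). These counts share their contrast with the call and add no evidence to it. By a looser rule, an absolute log2 fold change of at least 0.4 with an unadjusted p under 0.05, 58 genes were lower (0.581%) and 32 higher (0.321%). The widest differences under that rule with the same sign in all 3 pairs included those of *Cdca7*, *Zbtb24*, *H2ac19* and *Pcp4* among the lower genes, and of *Trpc2*, *Serpina3f*, *Il9r*, *Crisp3* and *Fkbp11* among the higher genes. *H2ac19*, a histone gene with close copies, measured 3.06, 1.42 and 6.46 FPKM in the controls and 0, 0 and 4.72 FPKM in B-CKO libraries, with an adjusted p of 0.157. *Il9r*, the receptor gene for interleukin 9, measured 34.2, 18.1 and 33.6 FPKM in the controls and 40.2, 36.9 and 66.5 FPKM in B-CKO libraries. Its groups did not overlap, yet its adjusted p was 0.112 (log2 fold change 0.73, SE 0.13).

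*Gbp3*, an interferon-inducible GTPase gene, was the called gene nearest to the interferon response. It measured 22.4, 17.4 and 13.6 FPKM in the controls and 29.4, 27.3 and 20.6 FPKM in B-CKO libraries, with overlap between the groups and a log2 fold change of 0.52 (SE 0.07, adjusted p = 0.0296 by limma). Among the next genes by p were its family members *Gbp7* (log2 fold change 0.50, adjusted p = 0.0954) and *Gbp2* (0.44, adjusted p = 0.113) and the large inducible GTPase gene *Gvin1* (0.39, adjusted p = 0.0716). These families hold close copies, so reads may be divided between members.

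Type I interferon-stimulated genes, which cells express at a low level without infection, had a median above that of all genes tested, although none passed the adjusted threshold. Of the 32 genes in the list 28 were tested and 4 were below 1 FPKM. 15 of the 28 were higher in B-CKO cells at an unadjusted p under 0.05 (2.81% of all genes tested were) and 0 were lower, and 20 were higher in all 3 pairs (12.4% of all were). The list's median log2 fold change was 0.22, against 0.00 over all genes tested (a median of -0.0037). Nevertheless, the smallest adjusted p in the list was 0.112.

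*Oas1a*, which makes the activator of RNase L, measured 5.57, 7.14 and 6.12 FPKM in the controls and 8.82, 9.08 and 9.33 FPKM in B-CKO libraries (log2 fold change 0.48). *Ifi27l2a*, a strongly interferon-induced gene, measured 80.4, 94.2 and 72.8 FPKM in the controls and 106.6, 108.5 and 98.1 FPKM in B-CKO libraries (0.34, adjusted p = 0.152). All B-CKO libraries were above all controls in both genes. *Ifi203* was higher in each pair (0.37), *Irf7* and *Irf9*, transcription factors of the pathway, had differences of 0.30 and 0.30, and *Mx1*, *Rsad2* and *Isg20* had differences of 0.07, 0.08 and 0.00 (a value of -0.003665). As a whole, the mean log2(FPKM + 1) of the listed genes was 3.23, 3.22 and 3.12 in control and 3.58, 3.40 and 3.23 in B-CKO replicates 1, 2 and 3, so B-CKO replicate 3 was level with control replicate 1. The count of 15 became 7 without replicate 1 and 5 without the block.

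Marginal zone B cells respond first to blood-borne antigen, depend on Notch2 signals and carry CD21 and CD1d at a high level. Of 12 marker genes, all of them tested, 8 were lower in B-CKO cells at an unadjusted p under 0.05 (3.39% of all genes tested were), 1 was higher and 0 were called. Their median was -0.22. *Asb2* measured 7.99, 3.66 and 4.38 FPKM in the controls and 4, 2.48 and 3.81 FPKM in B-CKO libraries (log2 fold change -0.48, adjusted p = 0.369), *S1pr3*, a sphingosine-1-phosphate receptor gene, had a difference of -0.42 and *Myof* one of -0.31. *Cd1d1*, *Cd9*, *Dtx1*, *Marcks* and *Tm6sf1* had differences between -0.25 and -0.19. In contrast, *Cr2*, which encodes CD21, and *Notch2* had differences of -0.03 and 0.01, and *Mzb1*, which is also a plasma cell gene, had one of 0.23. In bulk cells, fewer cells of a type and less RNA per cell cannot be told apart.

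Of the 12 markers 8 were lower in all 3 pairs (13.4% of all genes tested were), with the widest gap in *Asb2* and *S1pr3* in replicate 1. *S1pr3* was at 15.3 FPKM in control replicate 1 and at 8.35 FPKM in B-CKO replicate 1, but at 7.17 and 6.59 FPKM in the other controls and at 5.78 and 5.70 FPKM in the other B-CKO libraries. Without replicate 1 of both genotypes the count of 8 became 1, and without the block it became 0. The mean log2(FPKM + 1) of the 12 genes was 5.52, 5.22 and 5.36 in control and 5.22, 5.08 and 5.28 in B-CKO replicates 1, 2 and 3, lower in each of the 3 pairs, although the groups overlapped.

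No marker of the other B cell subsets was called. Among 6 tested transitional cell markers, 3 were lower at an unadjusted p under 0.05 (3.39% of all genes tested were) and 0 higher, namely *Akap12* (log2 fold change -0.30), *Myb* (-0.23) and *Cd24a* (-0.23), and the list's median was -0.17, with 4 of the 6 lower in all 3 pairs. Of 6 tested follicular markers 1 was higher and 0 lower at an unadjusted p under 0.05, with a median of 0.10. Of 9 tested B1 cell markers 2 were higher at an unadjusted p under 0.05 (2.81% of all genes tested were), *Bhlhe41* (0.32) and *Fcrl5* (0.19), while *Cd5*, the marker of B1a cells, measured 1.86, 2.24 and 1.68 FPKM in the controls and 1.66, 1.22 and 1.52 FPKM in B-CKO libraries, each below every control (-0.25, adjusted p = 0.838). *Rgs13* (0.50) was the 1 of 7 tested germinal center markers at an unadjusted p under 0.05, at a level of 1.78 to 4.59 FPKM over the 6 libraries.

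Plasma cell genes were mixed in direction. Of 15 tested, 3 were higher and 1 lower at an unadjusted p under 0.05, 0 were called and the median was 0.00 (a value of -0.004843). *Sdc1*, which encodes CD138, measured 5.53, 5.42 and 6.11 FPKM in the controls and 3.89, 2.89 and 4.29 FPKM in B-CKO libraries, each below every control (log2 fold change -0.52, SE 0.10, adjusted p = 0.113). *Fkbp11*, a secretory pathway gene, measured 2.92, 2.45 and 1.27 FPKM in the controls and 3.30, 4.85 and 3.46 FPKM in B-CKO libraries (0.62, adjusted p = 0.308). *Prdm1*, *Xbp1* and *Irf4*, the transcription factors of plasma cell differentiation, had differences of -0.04, -0.09 and 0.00 (a value of -0.00382).

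The identity of the cells was that of B cells in both groups. All 19 B cell identity genes were tested. At an unadjusted p under 0.05, 2 were lower (3.39% of all genes tested were), 1 of them called. At the same limit 1 was higher (2.81% of all were), and the list's median was -0.04. Of the members not called, *Cd79a*, *Ms4a1*, *Pax5* and *Ebf1* had differences of -0.02, -0.04, -0.11 and 0.09. *Pou2af1*, a coactivator needed for germinal centers, measured 268.0, 244.6 and 181.5 FPKM in the controls and 296.8, 332.2 and 241.5 FPKM in B-CKO libraries (0.33, adjusted p = 0.25). The summed levels of other cells' markers overlapped between the genotypes. The summed level of the T cell markers was 28.5 to 42.2 FPKM in the controls and 29.9 to 39.0 FPKM in B-CKO libraries, with *Lck* at 16.2 to 22.7 FPKM and *Cd4* at 0.36 to 0.72 FPKM, and that of the myeloid markers 13.1 to 21.0 and 16.1 to 23.7 FPKM. Stromal and endothelial markers summed to 78.4 to 79.5 FPKM in the controls and 70.4 to 83.5 FPKM in B-CKO libraries, nearly all of it *Pecam1* (77.9 to 79.1 and 70.1 to 82.9 FPKM). B-CKO replicate 3 had the highest erythroid sum.

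B cell receptor signalling genes were measured in full. Of 26 genes 4 were lower at an unadjusted p under 0.05 (3.39% of all genes tested were), 1 of them called, and 0 were higher, with a median of -0.04. The members named next were not called. *Pirb*, an inhibitory receptor gene, measured 32.7, 28.0 and 27.3 FPKM in the controls and 29.5, 17.4 and 24.4 FPKM in B-CKO libraries, with overlap (log2 fold change -0.32, adjusted p = 0.518), and *Syk*, *Btk* and *Blnk* had differences of 0.10, 0.07 and -0.01. *Il5ra*, the interleukin 5 receptor gene linked to ZBTB24 in other work, measured 13.0, 10.2 and 13.8 FPKM in the controls and 13.8, 9.28 and 13.4 FPKM in B-CKO libraries. The difference of *Il5ra* was -0.03 with a 95% interval of -0.20 to 0.14, too narrow at rest to hold a change of the size called here.

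Several lists held no gene at an unadjusted p under 0.05. These were the 21 tested genes of class switching and end joining (median 0.02), 19 of heme synthesis and breakdown (0.04), 15 p53 targets (0.02), 11 of the MHC class II pathway (0.00, a value of -0.003086) and 76 of the respiratory chain (0.00, a value of -0.004707). Imprinted genes gave 5 tested and 0 at an unadjusted p under 0.05. Of 23 listed germline genes that DNA methylation keeps silent, the 18 with a value were all below 1 FPKM in mean and none was tested. Cytosolic ribosomal protein genes had a median of 0.07 over 81 tested, with 38 of them higher in all 3 pairs (12.4% of all genes tested were) and 3 higher at an unadjusted p under 0.05.

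**Figure D3:**
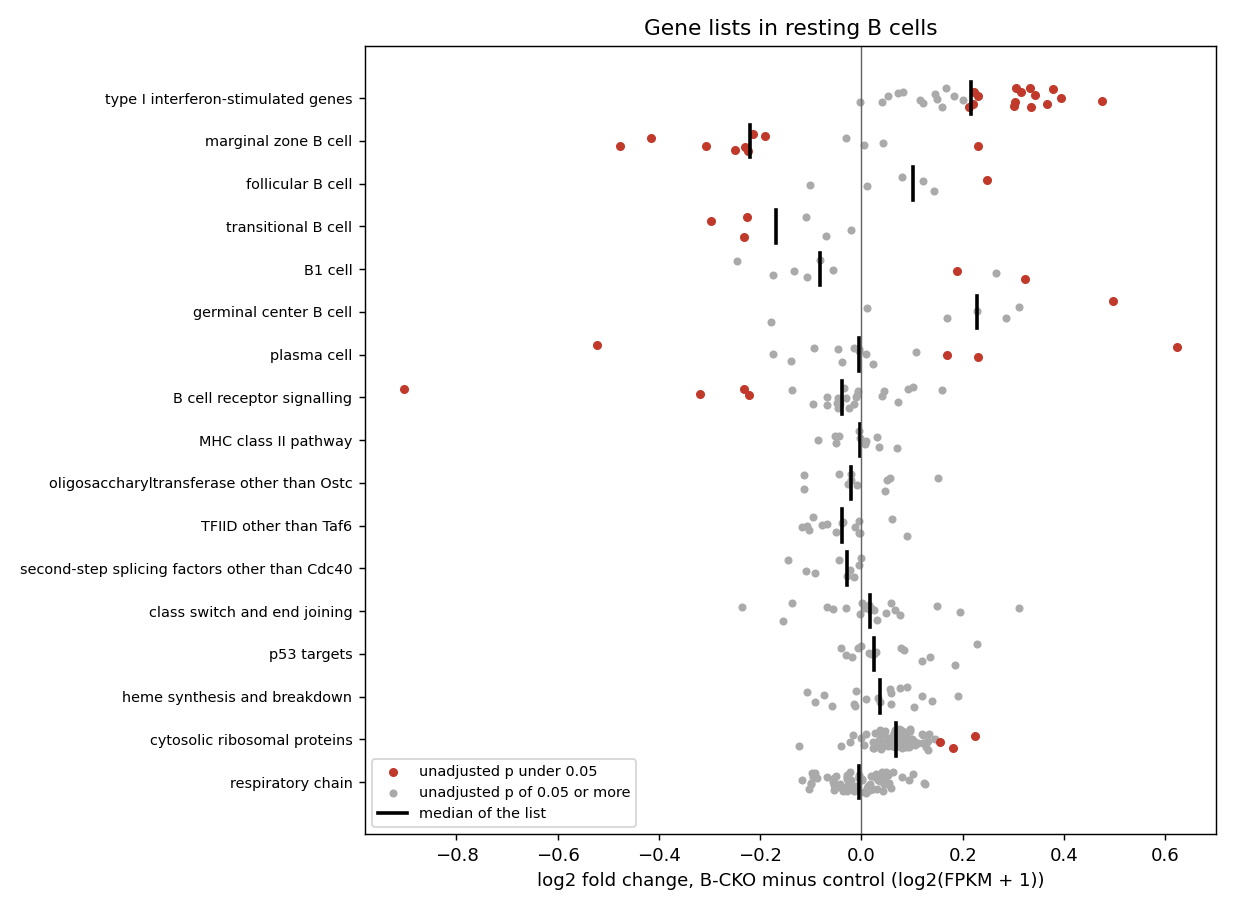
Log2 fold change (B-CKO minus control) of every tested member of 17 gene lists in resting B cells, with red points for an unadjusted p under 0.05 and a black bar for the median of each list. The interferon-stimulated genes lie to the right with a median of 0.22 and the marginal zone markers to the left with a median of -0.22, while the partners of OSTC, TAF6 and CDC40 lie around 0.

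Replicate numbers accounted for more of the spread at rest than genotype did. In the median gene 78.2% of the sum of squares over the 6 libraries went with the number and 3.86% with genotype. 345 genes differed by at least 1 on the log2 scale between the highest and lowest number (the mean of both genotypes), against 5 between genotypes. These counts are not like for like, since a range over 3 numbers is set against a single difference. The sum of squares likewise gives 3 numbers more room than 2 genotypes. *Nr4a3*, an immediate-early nuclear receptor gene, was at 1.28, 16.5 and 45.5 FPKM in control replicates 1, 2 and 3 and at 1.22, 17.1 and 35.3 FPKM in the B-CKO replicates. *Crem*, a cAMP-responsive regulator, measured 5.82, 37.6 and 75.8 FPKM in the controls and 6.21, 35.4 and 59.1 FPKM in B-CKO libraries. Both genotypes thus had their lowest level in replicate 1 and their highest in replicate 3 for these genes.

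Heat shock genes took another order, with a mean log2(FPKM + 1) of 5.10, 5.47 and 4.93 in control and 5.09, 5.77 and 4.92 in B-CKO libraries, highest in replicate 2 of both. A number's meaning, such as a day of preparation, is not stated in the labels, and its part in any single result was not tested beyond the block.

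**Figure D4:**
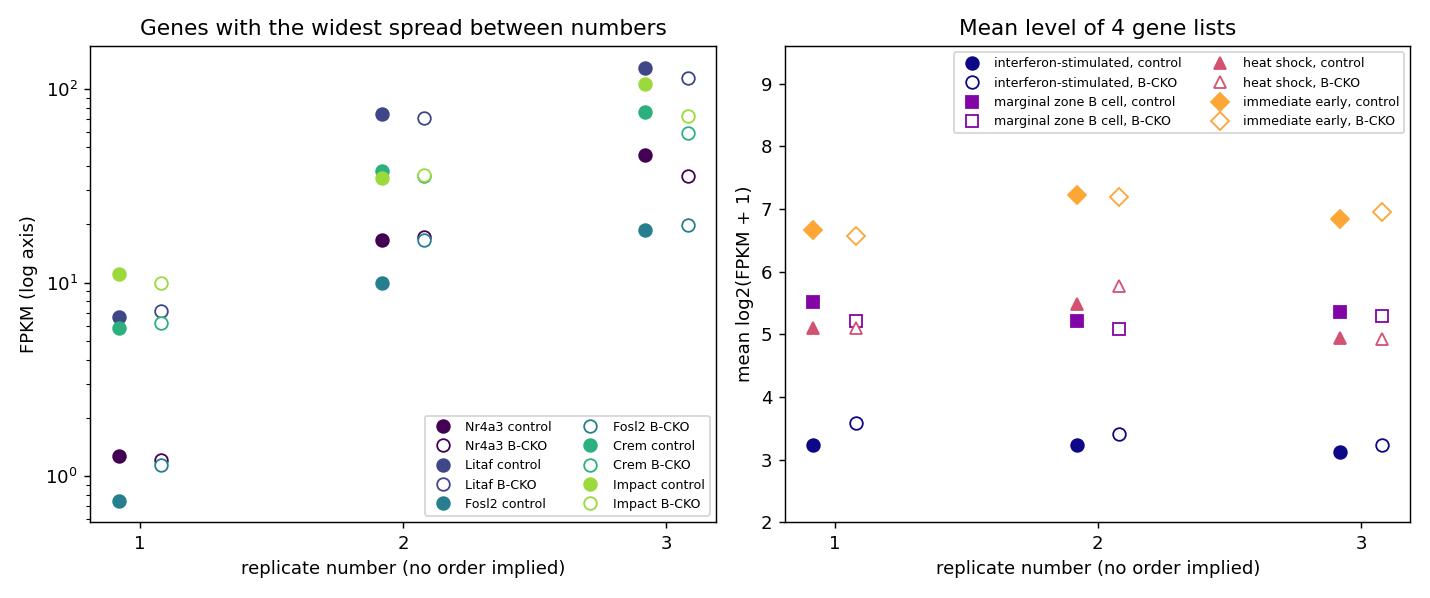
Left, FPKM on a log axis of the 5 genes (mean of at least 10 FPKM) with the widest spread between replicate numbers, and right, the mean log2(FPKM + 1) of 4 gene lists, for control (filled) and B-CKO (open) resting libraries by replicate number. On the left, libraries of the same number lie close together whatever their genotype, which the choice of genes by their spread between numbers favours. On the right, the interferon-stimulated genes are the list in which every open symbol lies above the filled one of its number.

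The called genes were followed into the LPS cultures, each day tested on its own 6 libraries. At day 1 19 of the 22 had a mean of at least 1 FPKM and 13 were called in the same direction (4% of all 9711 genes tested were called), and at day 2 6 of 18 were (0.294% of 9857). 0 were called in the opposite direction. These fits had no replicate block, and with one at day 2 more of the 22 were called. *Cdca7*, *Ostc*, *Taf6*, *Cdc40* and *Rnf187* were among those called on all 3 days. *Cdca7* measured 80.0, 85.5 and 82.2 FPKM in the controls and 19.3, 22.1 and 21.2 FPKM in B-CKO libraries at day 1, far above its level at rest in both genotypes, with log2 fold changes of -1.94 and -2.02 at days 1 and 2. The change of its effect from rest was -0.06 (SE 0.16) at day 1 and -0.14 (SE 0.15) at day 2 on the log2(FPKM + 1) scale, tested within mice. That scale understates the effect at rest, where the B-CKO mean was 0.151 of the control mean against 0.253 at day 1 and 0.234 at day 2, and where a pseudocount of 0.1 gave a log2 fold change of -2.59.

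*Ostc* had log2 fold changes of -1.31 and -1.26 at days 1 and 2 and *Taf6* of -1.12 and -1.05, but the change from rest passed the threshold in neither gene (adjusted p = 0.347 and 0.381 at day 1 by limma). *Rnf187* had -0.46 and -0.58. The effect on *Zbtb24* was smaller after LPS, where its control level was also lower. *Zbtb24* measured 18.3, 18.8 and 15.7 FPKM in the controls and 11.7, 10.4 and 10.6 FPKM in B-CKO libraries at day 1. The change from rest was 1.14 (SE 0.10, adjusted p = 0.0253) at day 1 and 1.28 (SE 0.09, adjusted p = 0.0149) at day 2, by limma with the replicate block, and it was not called without the block. *Zbtb24* was the 1 gene of the 22 whose change was called at each day (0.02% of all genes tested for a change were called at day 1 and 0.00993% at day 2).

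Among the genes called at rest and not in culture was *Tsc22d1*, which was at 1.23 to 1.93 FPKM in the control libraries of day 1 and had a log2 fold change of 0.01 there. *Serpina3g* measured 6.86 FPKM in the controls and 6.31 FPKM in B-CKO cells at day 1 (means, log2 fold change -0.10). *Serpina3f*, *Crisp3* and *Pcp4* were below a mean of 1 FPKM at days 1 and 2. The change of the effect from rest was not called for these genes (adjusted p = 0.507 for *Tsc22d1* and 0.273 for *Serpina3g* at day 1). *Gbp3* (0.22) and *Pde2a* (0.49) were called at day 1 as well.

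**Figure D5:**
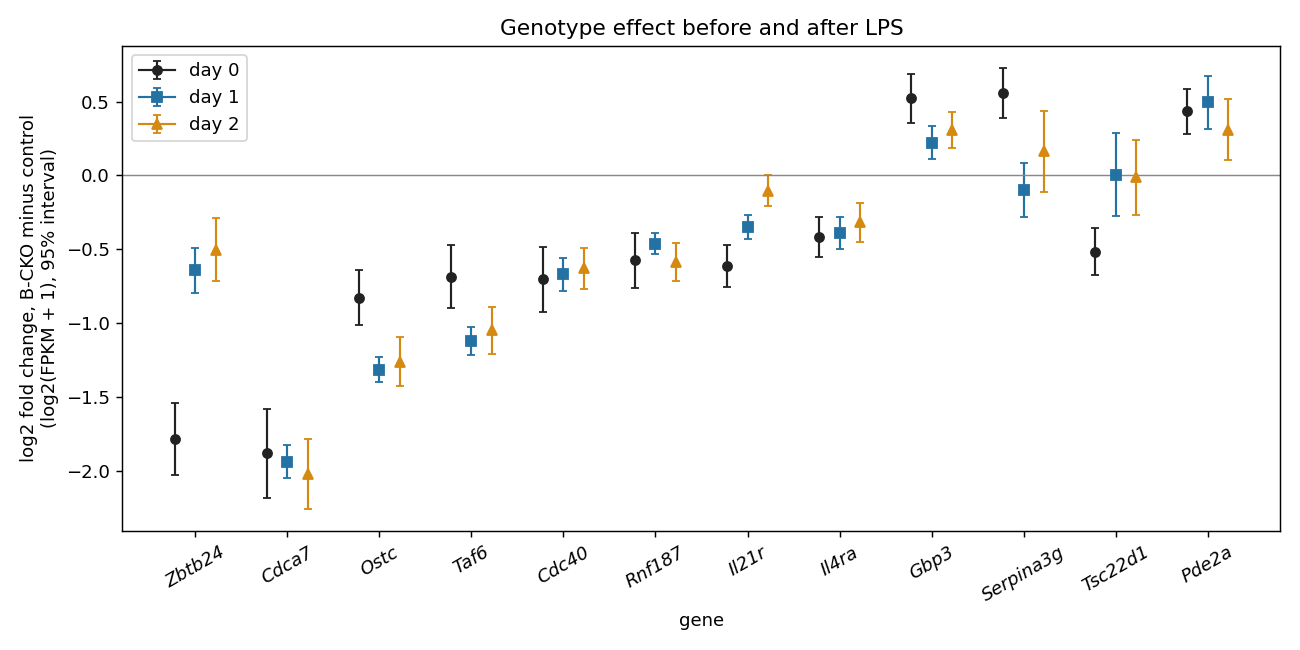
Log2 fold change (B-CKO minus control) of 12 genes called at rest, at day 0, day 1 and day 2 of culture with LPS, with 95% intervals from limma (3 against 3 libraries a day, with the replicate block at day 0 only). *Cdca7* lies between -1.88 and -2.02 on the log2(FPKM + 1) scale, which understates its effect at rest, *Zbtb24* moves from -1.78 to -0.50, and *Tsc22d1* is at 0.01 and -0.01 after activation.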

How the data were processed

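Gene expression was measured by RNA-Seq of splenic B cells, 3 mice of each genotype at rest and after 1 or 2 days with LPS. The deposited values are FPKM per gene, which the authors obtained with bowtie2 on mm10, Cufflinks and RSEM. Read totals are not given, so the depth is unknown, and steps between low FPKM values did not recover it. The 6 resting libraries summed to 453149.5 to 472676.2 FPKM and held 9872 to 9982 genes of at least 1 FPKM. NCBI gene IDs were matched to RefSeq names (16512 of 16545).

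log2(FPKM + 1) was fitted with limma 3.58.1 (R 4.3.3, lmFit and eBayes with trend), keeping genes that averaged 1 FPKM or more over the libraries compared, and p was adjusted by Benjamini-Hochberg over all of them. At rest the replicate number was a block, since deviations from the group means correlated at 0.857, 0.474 and 0.793 between same-numbered libraries. The average of -0.344 between others follows largely from subtracting the group means and adds no support. Days 1 and 2 had no block, and changes from rest were tested on differences within mice, with the block. The fit was tested on simulated data. Genes were named by a rule: the targeted gene and its known targets, up to 15 called genes in each direction with 3 pairs of 1 sign (filled to 10 by p), the 5 widest changes in each direction, and up to 3 members of each list; other genes were added for their role after their values were seen. Members and lists were chosen with earlier results of these data known. The replicate numbers pair the libraries only by this correlation. With the block, p-values rest on how far the 3 same-numbered differences vary, not on the spread between mice of different numbers. Without it, they rest on the spread between mice of the same genotype. All promoters come from the RefSeq table, and *Ostc* and *Car2* had none there. Some genes, 1 of the called ones included, are not reported here but stay in the counts. Alternatives were other filters, pseudocounts, scalings, no block and each replicate left out.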

Additional observations from a re-analysis of the deposited data

Results flagged for a closer look

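The genotype effect on *Zbtb24* differed between days: it was 1.14 higher on the log2 scale at day 1 than at rest (adjusted p = 0.0253 by limma) and 1.28 higher at day 2 (adjusted p = 0.0149), with the replicate block. The effect on *H2ac19*, a histone gene listed at 0 FPKM in 2 B-CKO libraries at rest, was 1.41 higher at day 1 than at rest (a change of 1.407, adjusted p = 0.00887), with 3 of the 6 libraries at 0 FPKM at day 1 and close copies of the gene in the genome. Groups of 3 libraries are too small for the test of a library that stands apart.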

How the results depend on the processing

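Without the replicate block 2 genes were called at rest (2 lower, 0 higher, limma; 93 at an unadjusted p under 0.05), 34 lower and 19 higher genes passed the looser size rule, 5 interferon-stimulated genes were higher and 0 marginal zone markers lower. When all genes above 0 FPKM in any library were tested, 0 were called, 0 lower and 0 higher, and *Zbtb24* was at -1.78 with an adjusted p of 0.689. A pseudocount of 0.1 gave 95 lower and 59 higher genes by the size rule, and a mean of at least 5 FPKM gave 27 and 16. With both replicates of 1 number left out, 10 to 101 genes were called, 8 to 58 lower and 1 to 43 higher; the size rule gave 71 to 91 lower and 47 to 70 higher, 7 to 18 interferon-stimulated genes were higher, 1 to 7 marginal zone markers were lower, and *Zbtb24* was at -1.93 to -1.61. Leaving out replicate 1 gave the 101 calls, and 7 and 8 of the 21 called genes other than *Zbtb24* kept their call without replicates 2 and 3. Without the block and 1 library, 0 to 2 were called (0 to 2 lower, 0 higher), 24 to 49 lower and 15 to 46 higher by size, with 1 to 9 interferon-stimulated genes, 0 to 2 marginal zone markers and *Zbtb24* at -1.92 to -1.67 (36 lower genes by size without control replicate 2 and 20 higher without B-CKO replicate 2; *Zbtb24* missed the threshold at -1.71 without control replicates 1 (-1.713) or 2 (-1.712), at -1.88, -1.67 and -1.79 without B-CKO replicates 1, 2 and 3). With a replicate block at day 2, 11 of the genes called at rest were called, and 8 to 11 at day 1 and 4 to 7 at day 2 with a replicate left out. The change of the effect from rest was called in 0 genes at each day without the block, with 12 libraries in 1 fit or with a pseudocount of 0.1, and in 0 to 1 and 0 to 7 with a replicate left out. Within 0.25 Mb of *Zbtb24*, 0 genes were called. Other scalings and a robust fit gave 22 to 24 calls, and no result changed sign. Read depth is unknown and 3 mice a group limit what can be called.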

Other observations

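In some genes certain mice were the lowest or the highest on all 3 days, and these were looked up after their values had been seen. *Slc15a2*, a peptide transporter gene, had the second widest fitted difference at rest (log2 fold change -2.11, adjusted p = 0.320) with 7.10, 4.48 and 12.2 FPKM in control and 0.12, 4.77 and 0.13 FPKM in B-CKO libraries. B-CKO replicates 1 and 3 were also at 0.04 and 0.09 FPKM at day 1 and at 0.04 and 0.08 FPKM at day 2, while B-CKO replicate 2 was at 0.40 and 1.10 FPKM, within or near the control range of 0.58 to 1.19 and 1.01 to 2.14 FPKM. *Xlr3b*, an X-linked gene with close copies, was at 3.65, 4.68 and 9.08 FPKM in control and 3.58, 12.7 and 13.5 FPKM in B-CKO libraries at rest, and control replicate 3 and B-CKO replicates 2 and 3 were the highest on all 3 days.

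*Rps27rt*, a retrocopy of a ribosomal protein gene, had the widest fitted difference (-2.71, adjusted p = 0.299), but its values switched between 0 and over 13 FPKM from library to library, with 0, 15.5 and 16.1 FPKM in control and 0 in each B-CKO library at rest, and B-CKO replicates 2 and 3 at 13.1 and 13.2 FPKM at day 1 and all controls at 0. The gene has a close parent copy, so its reads are uncertain.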
